A study of Syringa oblata with 2 samples.

Results

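In the leaves of *Syringa oblata* (lilac), the BAHD acyltransferases were taken as 22 unigenes, of 73159 in the deposited table, chosen by enzyme names of this family in their Swiss-Prot description. The descriptions searched were those of hydroxycinnamoyl transferases, malonyltransferases and other acyltransferases of anthocyanin glucosides, the cuticle enzymes DCR and omega-hydroxypalmitate O-feruloyl transferase, benzyl alcohol O-benzoyltransferase, benzyl alcohol acetyltransferase, vinorine synthase and any BAHD acyltransferase. The search found 25 unigenes, and the 3 whose best Nr protein match lies in rice (*Oryza*) were dropped. Other unigenes with the Pfam transferase domain of these members, such as those described as methanol O-anthraniloyltransferase, lay outside the search. A unigene is the longest transcript of 1 gene of the de novo assembly, and the IDs are given here without the prefix that all of them share.

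The trees grew either under natural light (Z0) or under black nets that gave 40% to 50% shading (Z1), and RNA of the leaves was sequenced in 2 libraries per condition (Z0-1, Z0-2, Z1-1 and Z1-2). The study describes the libraries of a condition as biological repeats, although GEO's labels give each condition as 1 sample. Which trees went into which library is not given in the sources used here, and the p-values below rest on the spread of these 4 libraries alone, which may be technical. Light differed between the same libraries as did the sampled trees and the level of a plant virus, and these cannot be told apart.

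BAHD acyltransferases take an acyl group from its coenzyme A thioester and join it to an alcohol or an amine. Shikimate O-hydroxycinnamoyltransferase (*HST*, also called HCT) joins p-coumaroyl-CoA to shikimate, the ester is hydroxylated by a cytochrome P450 of the CYP98A family, and the caffeoyl product leads to the guaiacyl and syringyl units of lignin. It therefore acts where p-coumaroyl-CoA can go either to lignin precursors or, through chalcone synthase, to flavonoids. Other members decorate anthocyanins, join hydroxycinnamic acids to polyamines, build cutin and suberin, or make volatile esters and alkaloids.

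The *HST* unigenes DN31867_c0_g1 and DN31867_c0_g2 carried the highest fold changes of all members, and they are the members the study measured by quantitative real-time PCR. Their primers are shown since they are the sequence by which the study measured each of these unigenes, which share an assembly component. The capitals mark the last 5 bases at the 3′ end, from which a primer is extended.
DN31867_c0_g1 forward: catggtctgatatggctcgTGGTC
DN31867_c0_g1 reverse: cggctggtactcgatgtGCTTG
DN31867_c0_g2 forward: ttctaggctccaacctccaCTTCC
DN31867_c0_g2 reverse: ggagatcaccagctactgcGATTG
The primers are 22 to 24 bases long with a GC content of 54.2% to 59.1%. No run longer than 6 bases was shared between a primer of DN31867_c0_g1 and a primer of DN31867_c0_g2. The sequences of the unigenes themselves were not used here.

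The members came from 18 components of the assembly, a component being a set of transcripts that share sequence. Their lengths ran from 205 to 1832 nucleotides with a median of 1238, against a median of 430 over all unigenes, and 10 of the 22 were shorter than 1000 nucleotides. All 22 carried the Pfam transferase domain PF02458, which the choice of members did not use and which 60 unigenes of the table carried in all. The KEGG annotation was coarser than Swiss-Prot. It gave the ortholog group of shikimate O-hydroxycinnamoyltransferase (K13065) to 12 members, of which 2 were shikimate transferases by Swiss-Prot, 4 were amine transferases, 3 were DCR, 2 were vinorine synthases and 1 was hydroxycinnamoyltransferase 4. The same 12 members stood in the KEGG flavonoid pathway, which held 125 unigenes.

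The level of each unigene is given as TPM, the abundance of its transcripts corrected for length and scaled to the same total in each library. The test was limma on log2(TPM + 1) of all unigenes, and a unigene was called up- or down-regulated in Z1 with a Benjamini-Hochberg adjusted p under 0.05 over all 73159 and a fold change beyond 2. Fold changes are on the log2(TPM + 1) scale, Z1 against Z0, with the standard error (SE), and they understate the change of unigenes with few TPM. The leaf markers were high and even, as 22 chlorophyll a-b binding protein unigenes summed to 7863 to 8118 TPM and 4 Rubisco small subunit unigenes to 12074 to 13507 TPM. Carlaviruses are RNA viruses of plants, and the 10 unigenes matched to them took up 22.8% of the summed TPM of Z0-1 and 13.9% of that of Z0-2, but 0.147% in Z1-1 and 0.0505% in Z1-2. The rice-matched unigenes summed to 32956 TPM in Z1-2 and to 2436 to 2955 TPM in the other libraries.

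The members together were expressed at a like level in both conditions, while their composition differed. The 22 members summed to 234 TPM in Z0-1, 341 TPM in Z0-2, 388 TPM in Z1-1 and 289 TPM in Z1-2, so that the conditions overlapped. The 3 shikimate transferases held 3.3% (Z0-1) and 4.3% (Z0-2) of the members' TPM under natural light, and 27.1% (Z1-1) and 22.7% (Z1-2) under shading. The 5 amine transferases held 59.8% and 40.3% in Z0 and 26.2% and 29.2% in Z1. These shares describe 1 whole divided among its members, so a rise of 1 group lowers the share of the others.

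**Figure D1:**
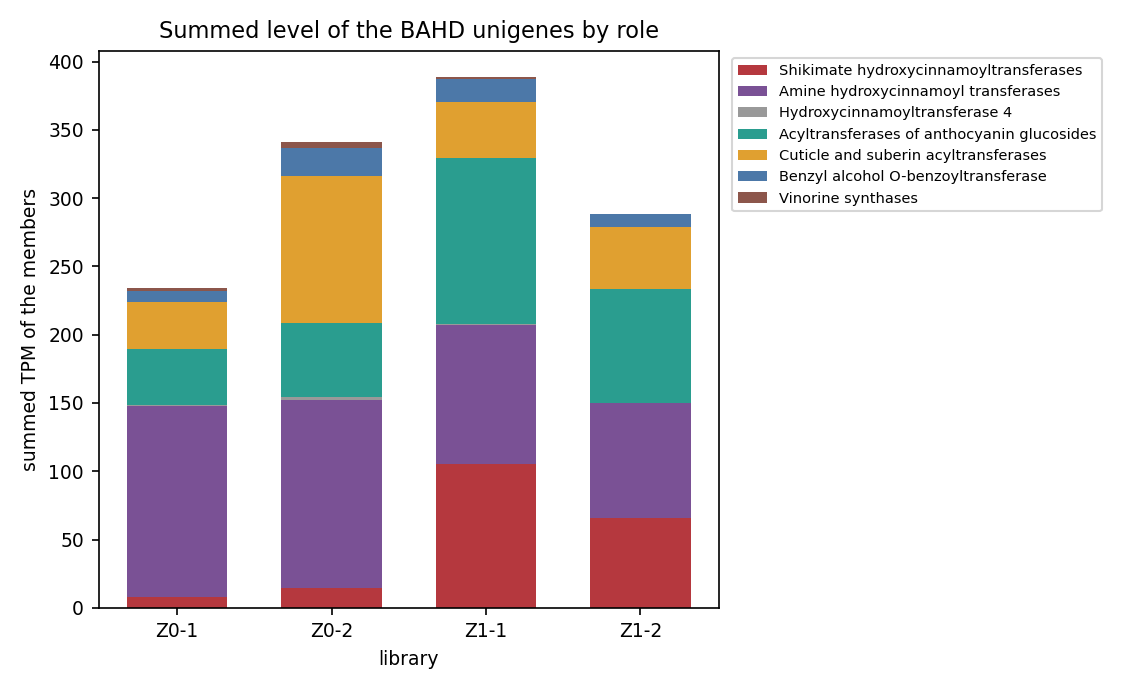
Summed level of the 22 BAHD unigenes in each library, in TPM, stacked by role. The shikimate transferases summed to 7.69 and 14.6 TPM in Z0-1 and Z0-2 and to 105 and 65.5 TPM in Z1-1 and Z1-2, and the amine transferases to 140, 137, 102 and 84.2 TPM in the same order.

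Among the 22 members, limma called 3 higher and 1 lower in Z1. The up-regulated members were both *HST* unigenes of component DN31867_c0 and DN720_c0_g1, by Swiss-Prot an acyltransferase of anthocyanidin glucosides. The down-regulated member was the spermidine hydroxycinnamoyl transferase DN36262_c0_g2. Over all unigenes 3.2% were called higher and 1.8% lower. Of all calls 64% were higher in Z1, and this share was 45.8% with scaling by median ratio and 37% with TMM scaling. At an unadjusted p under 0.05 with the same fold threshold, 4 members were higher and 4 lower, against 16.5% and 7.71% of all unigenes. The counts at an unadjusted p given below use this fold threshold too. In 8 members both Z1 libraries lay above both Z0 libraries, in 10 they lay below, and in 4 the conditions overlapped, where 41.5% of all unigenes lay above and 18.2% below.

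The median fold change of the members was -0.48, and that of all unigenes was 0.45. The median of all unigenes moved to 0.23 with scaling by median ratio and to 0.13 with TMM scaling, and that of the members to -0.63 and -0.70. Fold changes of single members are therefore read against these medians. The members of at least 1000 nucleotides had a median of 0.34, close to the 0.37 of all unigenes of that length. The shorter members had a median of -0.63, where all shorter unigenes had 0.50.

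With Z0-1, Z0-2, Z1-1 or Z1-2 left out in turn, limma called 0 members, while 2 or 3 were still higher and 2 to 4 lower at an unadjusted p under 0.05. With Z0-1, Z0-2 or Z1-2 left out, the fit gave 0 calls over all unigenes too, and with Z1-1 left out it gave 8233 higher and 145 lower. Where a fit made 0 calls in all, the lost calls say nothing of the members. The fold changes of the called members ranged from 2.60 to 3.91 for DN31867_c0_g1, from 3.10 to 3.99 for DN31867_c0_g2, from 1.91 to 2.74 for DN720_c0_g1 and from -3.56 to -3.13 for DN36262_c0_g2 with a library left out.

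**Figure D2:**
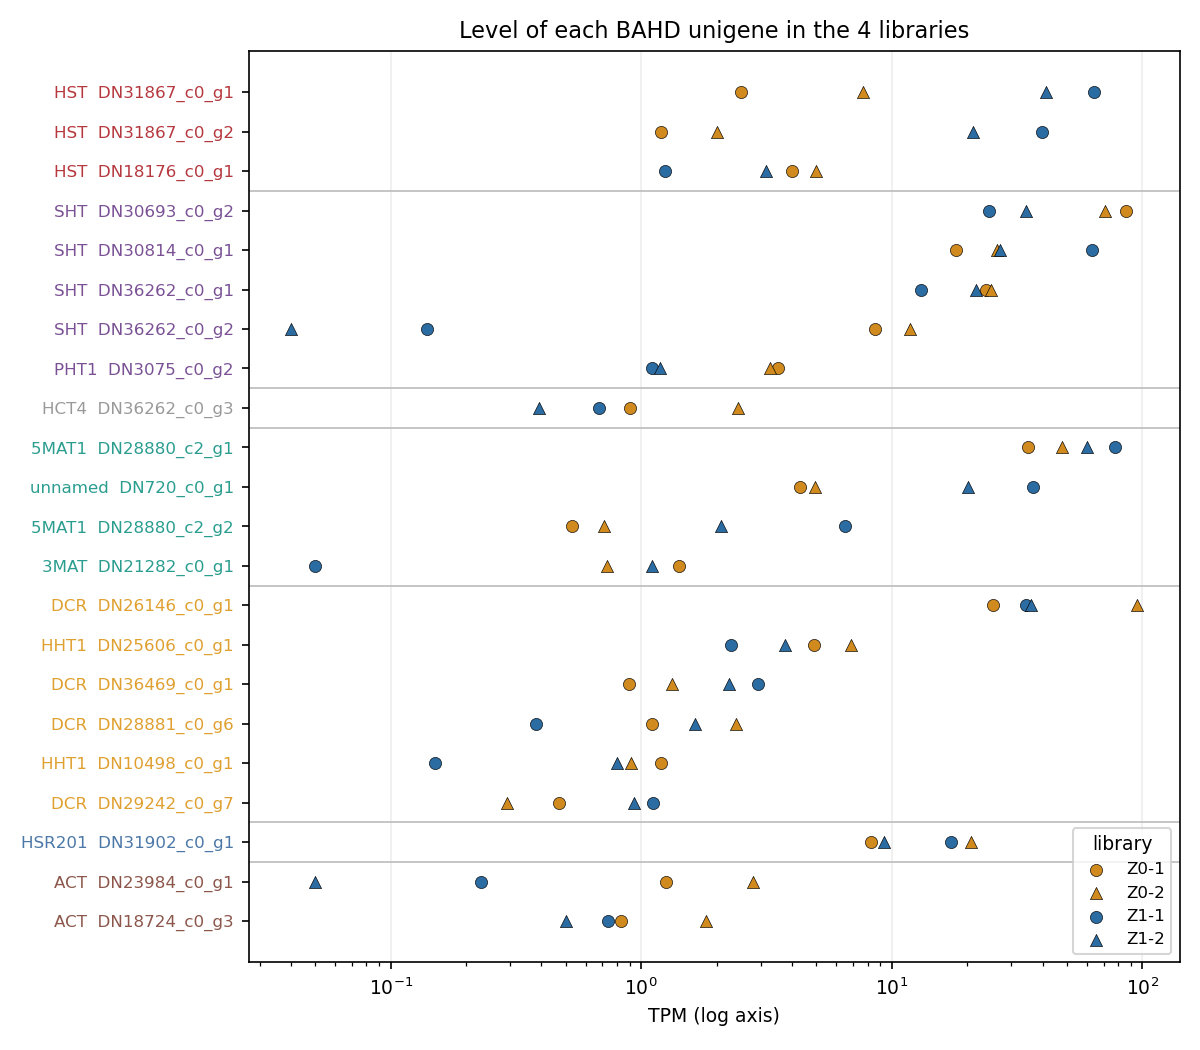
Level of each BAHD unigene in the 4 libraries, in TPM on a log axis, ordered by role (shikimate, amine, hydroxycinnamoyltransferase 4, anthocyanin glucosides, cuticle and suberin, benzyl alcohol, vinorine). Circles are the first and triangles the second library of Z0 (orange) and Z1 (blue). The HST unigenes of DN31867_c0 sit between 1.2 and 7.64 TPM in Z0 and between 21.1 and 64.3 TPM in Z1.

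The shikimate transferases were 3 unigenes, and those of component DN31867_c0 moved together. DN31867_c0_g1, of 1832 nucleotides and with shikimate O-hydroxycinnamoyltransferase of sesame as its best Nr match, was at 2.5 TPM in Z0-1, 7.64 TPM in Z0-2, 64.3 TPM in Z1-1 and 41.3 TPM in Z1-2. Both Z1 libraries lay above both Z0 libraries, and the mean TPM in Z1 was 10.4 times that in Z0. The fold change was 3.26 (SE 0.52, limma adjusted p = 0.0475). The repeats differed by 1.30 on the log2(TPM + 1) scale in Z0 and by 0.63 in Z1, less than the conditions.

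DN31867_c0_g2, of 1413 nucleotides and with the same best matches, was at 1.2 and 2.0 TPM in Z0-1 and Z0-2, and at 39.9 and 21.1 TPM in Z1-1 and Z1-2. The groups did not overlap, and the mean TPM in Z1 was 19.05 times that in Z0. The fold change was 3.55 (SE 0.39, limma adjusted p = 0.0359), the highest of the 22 members, and it ranged from 2.38 to 4.14 over the alternatives. The call of DN31867_c0_g2 held with both other scalings, while DN31867_c0_g1 had an adjusted p of 0.0509 with scaling by median ratio and of 0.0537 with TMM scaling. With pseudocounts of 0.1 and 5 neither was called.

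The pair summed to 3.7 TPM in Z0-1, 9.64 TPM in Z0-2, 104 TPM in Z1-1 and 62.4 TPM in Z1-2. DN31867_c0_g2 held 20.7% to 38.3% of this sum, and DN31867_c0_g1 was the more abundant of the pair in all 4 libraries. Among the members DN31867_c0_g1 ranked 12th and 8th by TPM in Z0-1 and Z0-2, and 2nd in both Z1 libraries. As these unigenes share a component, reads could be split between them by the quantification. The sum of the component does not depend on that split, and its fold change was 3.53 (SE 0.48), with an adjusted p of 0.0558 in the limma fit over 30459 components. Both unigenes are among the genes the study chose from these libraries for their rise in Z1, so their direction here is not independent evidence. The study also reported both as higher in Z1 by quantitative real-time PCR, which was not re-analysed here.

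The remaining *HST* match, DN18176_c0_g1, behaved otherwise. This fragment of 205 nucleotides was at 3.99 and 4.99 TPM in Z0-1 and Z0-2 and at 1.24 and 3.14 TPM in Z1-1 and Z1-2, so both Z1 libraries lay below Z0. Its fold change of -0.84 (SE 0.39) did not pass the test (limma adjusted p = 0.230). KEGG placed it with omega-hydroxypalmitate O-feruloyl transferase, and its best Nr match was a putative HXXXD-type acyltransferase, so its name as *HST* rests on Swiss-Prot alone. The 3 dropped rice matches were hydroxycinnamoyltransferases 1 and 2 of rice by Swiss-Prot, at 3.17 to 6.87 TPM in Z1-2 and at most 0.85 TPM in the other libraries.

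**Figure D3:**
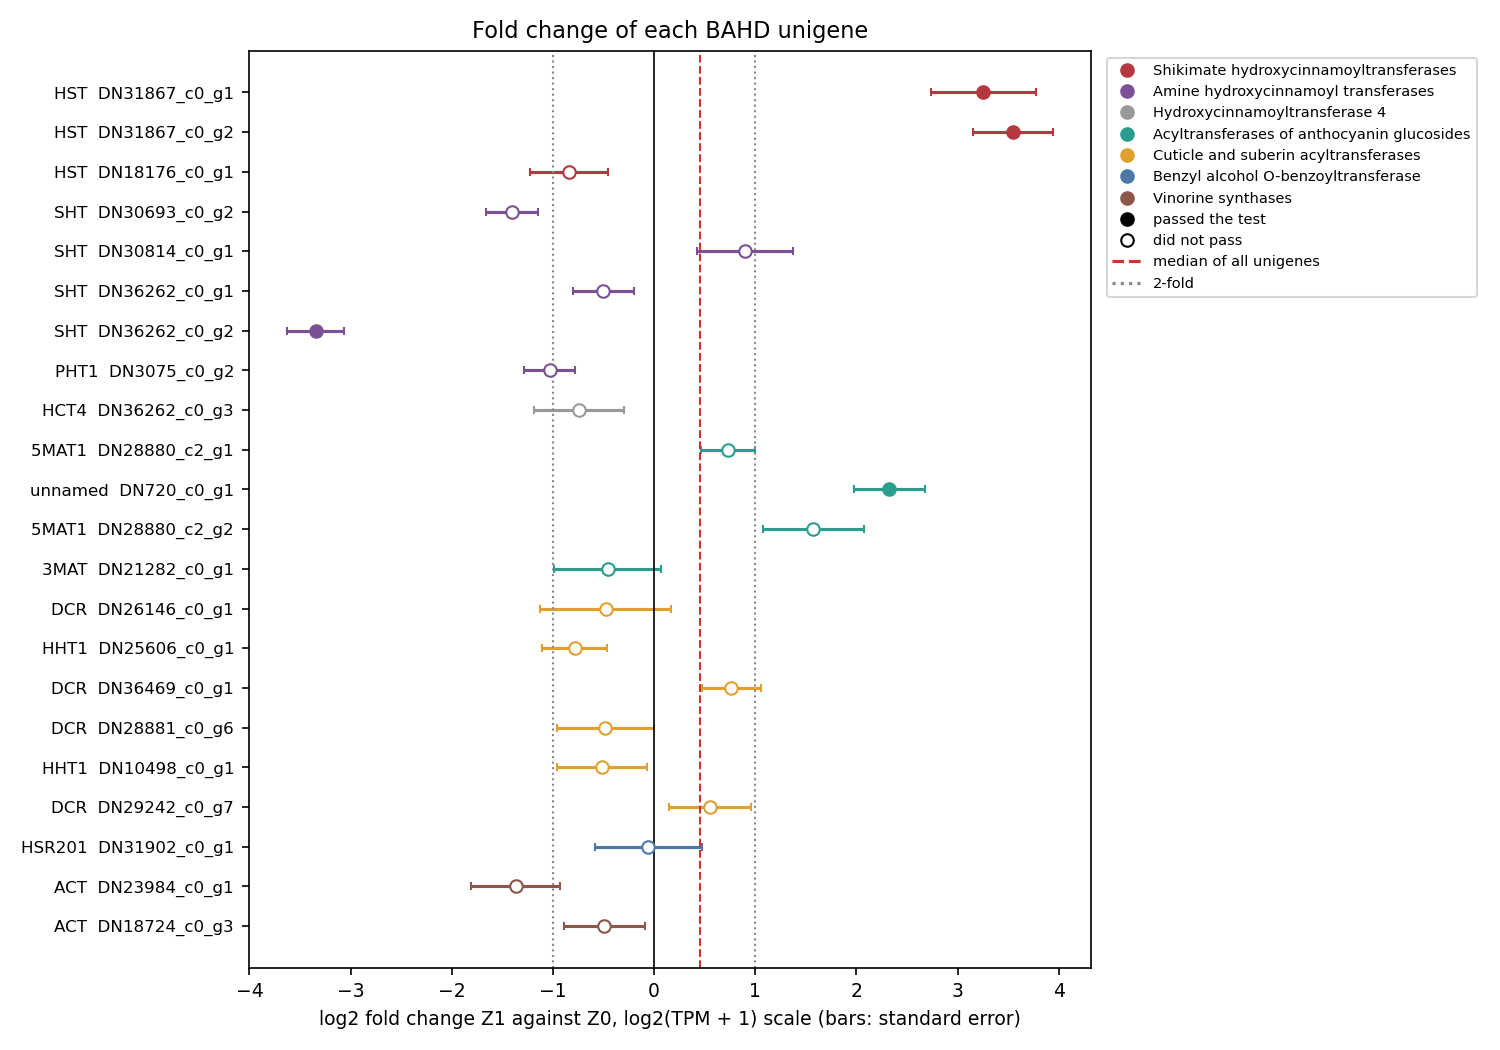
Fold change of each BAHD unigene, Z1 against Z0, on the log2(TPM + 1) scale, with bars of 1 SE and colours by role. Filled points passed the test; the dashed line is the median of all unigenes (0.45) and the dotted lines mark a change of 2-fold. The points at 3.26, 3.55 and 2.33 passed as higher and the point at -3.35 as lower.

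The amine hydroxycinnamoyl transferases were 4 unigenes matched to SHT and 1 matched to PHT1. SHT of Arabidopsis builds the hydroxycinnamoyl spermidines of the pollen coat in the anther, and PHT1 of rice acts on putrescine. In 4 of the 5 both Z1 libraries lay below both Z0 libraries and in 1 above. Over all unigenes 18.2% lay below and 41.5% above. Of the 5, 1 was called lower, where 1.8% of all unigenes were. DN30693_c0_g2, of 999 nucleotides, had the highest mean TPM of the amine transferases over the 4 libraries, though not in Z1, where DN30814_c0_g1 was higher by mean, and was the highest of all members in Z0-1, at 86.1 and 71.2 TPM in Z0-1 and Z0-2 and at 24.4 and 34.2 TPM in Z1-1 and Z1-2. The groups were far apart against the repeats, with a fold change of -1.41 (SE 0.26), and the limma adjusted p of 0.0560 missed the threshold. DN30693_c0_g2 was called lower with a filter at 5 TPM (limma adjusted p = 0.0151), with TMM scaling (0.0424) and without the rice- and carlavirus-matched unigenes (0.0384). It was not called with scaling by median ratio (0.0534), pseudocounts of 0.1 (0.0616) and 5 (0.0826) or a replicate block (0.0806). With a library left out its fold change ran from -1.64 to -1.17.

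Component DN36262_c0 held DN36262_c0_g1 and DN36262_c0_g2, both matched to SHT, and DN36262_c0_g3, matched to hydroxycinnamoyltransferase 4 of rice. DN36262_c0_g2, of 633 nucleotides, was at 8.53 and 11.8 TPM in Z0-1 and Z0-2 and at 0.14 and 0.04 TPM in Z1-1 and Z1-2. The unigene was nearly absent from both Z1 libraries, and the fold change was -3.35 (SE 0.28, limma adjusted p = 0.0334), the lowest of all members. It was called in every alternative except the pseudocount of 5, the sum per component and the leaving out of a library, and ranged from -5.79 to -1.57. DN36262_c0_g1, of 1568 nucleotides, was at 23.7 and 24.8 TPM in Z0-1 and Z0-2 and at 13.1 and 21.6 TPM in Z1-1 and Z1-2, with a fold change of -0.50 that did not pass (limma adjusted p = 0.334). DN36262_c0_g3 stayed at 0.39 to 2.44 TPM, with a fold change of -0.74 (limma adjusted p = 0.332).

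These components held further unigenes that bore no Swiss-Prot description and so were no members. DN36262_c0_g4, a fragment of 205 nucleotides with spermidine hydroxycinnamoyl transferase as its Nr match, was at 14.0 and 31.2 TPM in Z0-1 and Z0-2 and was listed at 0 in Z1-1 and Z1-2. DN30693_c0_g7, of 289 nucleotides and with the same kind of match, was at 53.2, 46.4, 8.93 and 26.2 TPM in Z0-1, Z0-2, Z1-1 and Z1-2. DN30693_c0_g3, DN30693_c0_g5, DN30693_c0_g6 and DN30693_c0_g8 were at 2.7 to 8.08 TPM in Z0 and at most 0.16 TPM in Z1. In both components some unigenes were thus nearly confined to the Z0 libraries beside others found in all 4. Summed over the component, DN36262_c0 was at 47.1 and 70.3 TPM in Z0 and at 13.9 and 22.0 TPM in Z1, a fold change of -1.66 (SE 0.32, limma adjusted p = 0.0753). DN30693_c0 was at 165 and 149 TPM in Z0 and at 47.7 and 71.3 TPM in Z1, a fold change of -1.41 (SE 0.25, limma adjusted p = 0.0705). The 2 libraries of Z0 are also those with the high carlavirus level, and the part of that in these levels was not tested.

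**Figure D4:**
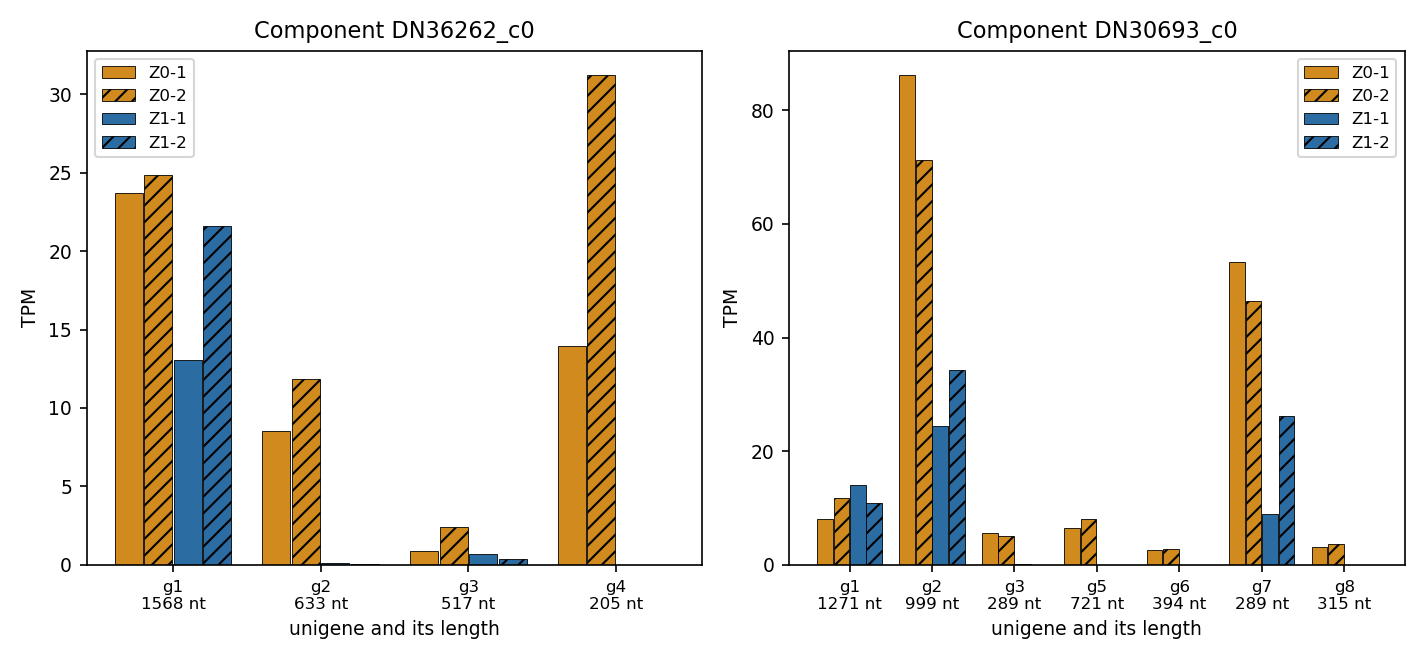
Level of every unigene of the components DN36262_c0 (left) and DN30693_c0 (right) in the 4 libraries, in TPM, with the length of each unigene in nucleotides. Orange bars are Z0 and blue bars Z1, and hatching marks the second library. In Z1 DN36262_c0_g2 is at 0.14 and 0.04 TPM and DN36262_c0_g4 is listed at 0, while DN36262_c0_g1 is at 13.1 and 21.6 TPM.

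The other amine transferases did not pass the test. DN30814_c0_g1, also matched to SHT, was at 18.1, 26.2, 63.2 and 27.1 TPM in Z0-1, Z0-2, Z1-1 and Z1-2. It was the only amine transferase with both Z1 libraries above Z0, but Z0-2 and Z1-2 were nearly level, and the fold change of 0.90 (SE 0.47) had a limma adjusted p of 0.279. DN3075_c0_g2, the fragment of 237 nucleotides matched to PHT1, was at 3.5, 3.27, 1.1 and 1.19 TPM in the same order, with a fold change of -1.03 (limma adjusted p = 0.0830). Its best Nr match was an omega-hydroxypalmitate O-feruloyl transferase, so its substrate class differs between the databases.

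The acyltransferases of anthocyanin glucosides were 4 unigenes by Swiss-Prot. KEGG gave all 4 the ortholog group of isoflavone 7-O-glucoside-6''-O-malonyltransferase (K13264), so their substrate differs between the databases. In 3 of them both Z1 libraries lay above both Z0 libraries, as in 41.5% of all unigenes. Acyltransferases of this kind attach malonyl or hydroxycinnamoyl groups to the sugars of anthocyanins, which stabilises the pigments. DN720_c0_g1, matched to an anthocyanidin glucoside acyltransferase of *Perilla*, was at 4.3 and 4.94 TPM in Z0-1 and Z0-2 and at 36.6 and 20.1 TPM in Z1-1 and Z1-2. The mean TPM in Z1 was 6.13 times that in Z0, and the fold change was 2.33 (SE 0.35, limma adjusted p = 0.0453). It was not called with TMM scaling (adjusted p = 0.0576) or with pseudocounts of 0.1 and 5, and ranged from 1.75 to 2.74.

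DN28880_c2_g1, which had the highest mean TPM of all members over the 4 libraries, was matched to the malonyltransferase 5MAT1 of *Salvia splendens*. It was at 34.9 and 47.7 TPM in Z0-1 and Z0-2 and at 77.8 and 60.2 TPM in Z1-1 and Z1-2, and ranked first in both Z1 libraries. Its fold change of 0.73 (SE 0.27) did not pass (limma adjusted p = 0.159). DN28880_c2_g2, of the same component and match, was at 0.53, 0.71, 6.5 and 2.09 TPM in Z0-1, Z0-2, Z1-1 and Z1-2, with a fold change of 1.57 (SE 0.50, limma adjusted p = 0.127). DN21282_c0_g1, matched to the dahlia enzyme 3MAT and with a hypothetical protein as its best Nr match, ran from 0.05 to 1.41 TPM and the conditions overlapped.

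The cuticle and suberin acyltransferases were 4 unigenes matched to DCR and 2 matched to HHT1. None was called by limma, with 0 at an unadjusted p under 0.05 as well, where 16.5% of all unigenes were higher and 7.71% lower. In Arabidopsis DCR is needed for the hydroxylated fatty acids of cutin, and HHT1 joins ferulate to the fatty acids of suberin. The name DCR rests on Swiss-Prot alone for DN26146_c0_g1, DN28881_c0_g6 and DN36469_c0_g1. Their best Nr match was an uncharacterized acetyltransferase, and KEGG gave them K13065. DN26146_c0_g1, matched to DCR, was at 25.4 TPM in Z0-1, 95.5 TPM in Z0-2, 34.4 TPM in Z1-1 and 36.0 TPM in Z1-2. It was the highest of all members in Z0-2, and the repeats of Z0 differed by 1.87 on the log2(TPM + 1) scale, the widest gap between repeats of any member. Its fold change of -0.48 (SE 0.65, limma adjusted p = 0.613) turned to 0.46 without Z0-2. DN25606_c0_g1, matched to HHT1, was at 4.88, 6.9, 2.29 and 3.76 TPM in Z0-1, Z0-2, Z1-1 and Z1-2, with a fold change of -0.78 (limma adjusted p = 0.193). The remaining 4 ran from 0.15 to 2.93 TPM. In 2 of them, DN36469_c0_g1 and DN29242_c0_g7, both Z1 libraries lay above Z0, in DN10498_c0_g1 they lay below, and in DN28881_c0_g6 the conditions overlapped.

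The enzymes of volatile esters and alkaloids were 3 unigenes, and none passed the test. DN31902_c0_g1, matched to HSR201, the benzyl alcohol O-benzoyltransferase of tobacco, was at 8.27, 20.8, 17.2 and 9.29 TPM in Z0-1, Z0-2, Z1-1 and Z1-2. The conditions overlapped, and the fold change of -0.06 (SE 0.53, limma adjusted p = 0.945) turned to 0.56 without Z0-2 and to 0.36 without Z1-2. Vinorine synthase acetylates an intermediate of the alkaloid ajmaline in *Rauvolfia*. Of its matches, DN23984_c0_g1 was at 1.26, 2.8, 0.23 and 0.05 TPM in the same order (fold change -1.37, SE 0.44, limma adjusted p = 0.130), and DN18724_c0_g3 ran from 0.5 to 1.82 TPM with both Z1 libraries below Z0.

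The enzymes around *HST* in phenylpropanoid metabolism were 47 further unigenes, chosen by their Swiss-Prot description. Limma called 4 of the 47 higher and 0 lower, where it called 3.2% and 1.8% of all unigenes. At an unadjusted p under 0.05 and beyond 2-fold, 19 were higher and 1 lower, against 16.5% and 7.71%. Both Z1 libraries lay above both Z0 libraries in 30 of the 47 and below in 2, where 41.5% of all unigenes lay above and 18.2% below. Their median fold change was 0.77, where that of all unigenes was 0.45. Phenylalanine ammonia-lyase (DN36967_c0_g1), which opens the pathway, was at 33.2 and 66.5 TPM in Z0-1 and Z0-2 and at 266 and 135 TPM in Z1-1 and Z1-2 (fold change 1.99, limma adjusted p = 0.0854). The cinnamate 4-hydroxylase step differed between unigenes. DN32354_c2_g1, the 1 match among the 47, had a fold change of 0.97 (limma adjusted p = 0.209). DN29851_c0_g2, which the study names for this step and chose from these libraries, is described by Swiss-Prot as CYP73A100 and so was not among the 47. It was at 0.26 and 0.75 TPM in Z0-1 and Z0-2 and at 13.5 and 18.8 TPM in Z1-1 and Z1-2, and was up-regulated with a fold change of 3.51 (SE 0.31, limma adjusted p = 0.0340). The call was lost with pseudocounts of 0.1 (limma adjusted p = 0.0504) and 5 (0.0694). With TPM summed per component the fold change was 1.502 (limma adjusted p = 0.0546), which was not called. Whether reads were split between unigenes of this component was not tested.

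The 4-coumarate-CoA ligase 4CL1 (DN35155_c0_g1), which makes the acyl donor of *HST*, was at 5.94, 14.7, 77.7 and 62.8 TPM in Z0-1, Z0-2, Z1-1 and Z1-2. It was up-regulated in Z1 with a fold change of 2.76 (SE 0.45, limma adjusted p = 0.0483), a call lost with scaling by median ratio (adjusted p = 0.0507), with TMM scaling (0.0538) and with pseudocounts of 0.1 and 5. The other 4-coumarate-CoA ligase unigene, DN32545_c0_g1, was at 17.3, 17.8, 25.6 and 13.9 TPM in the same order. Its conditions overlapped, with a fold change of 0.10 (limma adjusted p = 0.836). The phenylalanine ammonia-lyase and 4CL1 are, like the *HST* pair, genes the study chose from these libraries. Of the enzymes that act after *HST*, the hydroxylase CYP98A2 had 3 unigenes, and none of them passed the test. The most abundant, DN32119_c1_g1, was at 26.7, 18.3, 51.6 and 53.8 TPM in the same order, with a fold change of 1.22 (SE 0.26, limma adjusted p = 0.0677). DN28956_c2_g2 had a fold change of 0.34 (limma adjusted p = 0.391) and DN35956_c2_g3 of 2.13 (0.127). Caffeoylshikimate esterase (DN37229_c0_g1) was abundant in every library, at 103 to 158 TPM, with overlapping conditions and a fold change of 0.27 (limma adjusted p = 0.486), and was the most abundant of 9 unigenes of this esterase. That direction flips with scaling by median ratio, with TMM scaling and without the rice- and carlavirus-matched unigenes. Of the 9 unigenes 0 were called by limma. At an unadjusted p under 0.05 and beyond 2-fold, 3 were higher and 1 lower, against 16.5% and 7.71% of all unigenes. In 5 of the 9 both Z1 libraries lay above both Z0 libraries and in 1 below, against 41.5% and 18.2%. The next in level, DN34786_c0_g2, was at 18.6, 38.2, 180 and 74.3 TPM in Z0-1, Z0-2, Z1-1 and Z1-2 (fold change 2.07, limma adjusted p = 0.0994), and DN31695_c1_g4 was at 5.75, 14.8, 63.3 and 34.5 TPM (fold change 2.21, limma adjusted p = 0.0818).

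Further down the route to lignin, 3 unigenes of the last reductive steps were up-regulated in Z1. They were 1 of 14 unigenes of cinnamoyl-CoA reductase and 2 of 12 of cinnamyl alcohol dehydrogenase, where 3.2% of all unigenes were called higher. The 14 had a median fold change of 0.094, with 7 positive and 7 negative. The 12 had a median of 0.81 and all were positive, where all unigenes had a median of 0.45. Cinnamoyl-CoA reductase CCR1 (DN34634_c0_g1) was at 43.3, 68.7, 368 and 226 TPM in Z0-1, Z0-2, Z1-1 and Z1-2, with a fold change of 2.38 (SE 0.37, limma adjusted p = 0.0463), a call lost with TMM scaling (adjusted p = 0.0553) and with pseudocounts of 0.1 and 5. Of cinnamyl alcohol dehydrogenase, DN28486_c2_g4 was called with a fold change of 2.86 (SE 0.22, limma adjusted p = 0.0334). So was the fragment DN28486_c2_g9 of the same component, with 3.42 (SE 0.37, limma adjusted p = 0.0358). Both bore the name CAD1. With a pseudocount of 5 neither was called, and with 0.1 DN28486_c2_g9 was not (limma adjusted p = 0.0504). Summed per component the fold change was 2.19 (limma adjusted p = 0.0546), which was not called. DN36556_c0_g1, DN33197_c0_g2, DN34713_c0_g1 and DN34713_c0_g4 also bore the name CAD1 but were not called. Their fold changes were 2.84, 0.68, 0.41 and 0.12 in this order. The most abundant unigenes of the methyltransferases and of cinnamyl alcohol dehydrogenase missed the threshold, with fold changes of 2.68 for DN31919_c1_g2 of caffeoyl-CoA O-methyltransferase (limma adjusted p = 0.0513), 2.13 for DN28157_c0_g1 of caffeic acid 3-O-methyltransferase (0.0619) and 2.84 for DN36556_c0_g1 of cinnamyl alcohol dehydrogenase (0.0518).

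**Figure D5:**
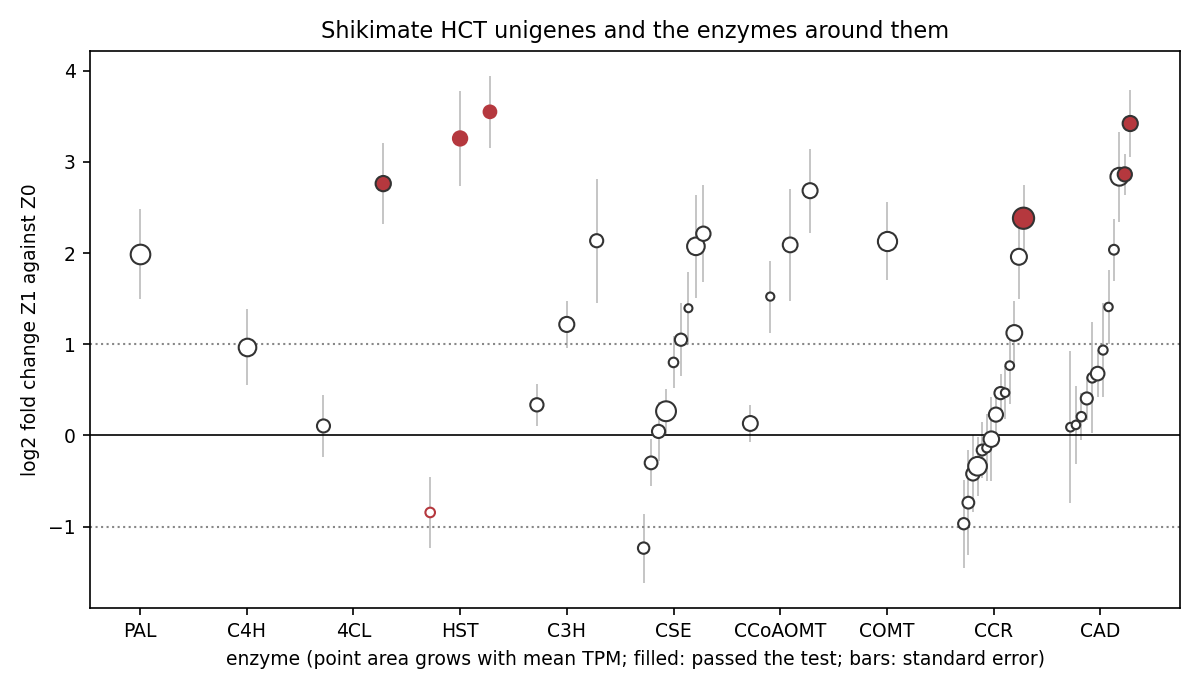
Fold change, Z1 against Z0, on the log2(TPM + 1) scale, of the 3 HST matches (red outline) and the 47 unigenes of the enzymes around them (dark outline). Enzymes stand in the order of the pathway from phenylalanine ammonia-lyase (PAL) to cinnamyl alcohol dehydrogenase (CAD). Bars are 1 SE, the area of a point grows with the mean TPM, and points filled in red passed the test, whatever the enzyme. Both unigenes of DN31867_c0 (3.26 and 3.55) and 4 others are filled.

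Markers of lignified tissue did not all follow these enzymes. The 5 unigenes of the cellulose synthases of the secondary wall (CesA 4, 7 and 8), which mark xylem, summed to 36.7 and 30.4 TPM in Z0-1 and Z0-2 and to 11.0 and 14.3 TPM in Z1-1 and Z1-2. The 9 laccases, which polymerise lignin, summed to 87.0, 176, 166 and 89.1 TPM in Z0-1, Z0-2, Z1-1 and Z1-2, with overlapping conditions. The casparian strip membrane protein of the root endodermis, with 1 unigene, was at 0 to 2.12 TPM. In bulk leaves fewer cells of a type and less RNA per cell cannot be told apart, and the part of the tissue's makeup in the levels above was not tested.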

How the data were processed

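RNA-seq of leaves of *S. oblata* was analysed from the file in which the authors deposited TPM values per library for 73159 unigenes, beside unigene lengths and annotation. According to the study, reads from an Illumina HiSeq instrument were assembled de novo with Trinity; per the submitters' processing notes FastQC, cutadapt, Salmon and edgeR were also used, with versions not given in the sources used here. GEO's labels call the molecule genomic DNA, while their extraction text describes poly(A) RNA. As TPM keep no counts, the depth of the libraries and its precision are unknown, and reads shared between near copies could not be told apart. Libraries were matched to conditions by column names. Members whose Swiss-Prot cell was blank in the copy used could not be found by the rule. Nor could unigenes whose Swiss-Prot name was not searched, such as those of methanol O-anthraniloyltransferase.

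TPM were taken as log2(TPM + 1) without a filter and fitted with limma 3.58.1 (trended prior, no covariate) in R 4.3.3 with data.table (version 1.17.8), and the code was tested on simulated data; tables and plots used Python 3.11.15, pandas 2.3.3 and matplotlib 3.10.9. Named unigenes are every called member, the *HST* pair of the study, up to 4 members of highest mean TPM per role, up to 6 non-overlapping members of at least 5 TPM with the highest and lowest fold changes, and of the pathway enzymes those called and the most abundant of each. Unigenes of the same components, DN29851_c0_g2, DN34786_c0_g2, DN31695_c1_g4, other members and the dropped rice matches were named after their values were seen. Members and lists were chosen with earlier results of these data known. Primer sequences came from the study's supplement.

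The fit was repeated with a pseudocount of 0.1 or 5, a minimum of 5 TPM in 1 library, TMM scaling (unweighted, trimming 30% of M and 5% of A values) or median-ratio scaling, a replicate block, removal of rice- and carlavirus-matched unigenes, TPM summed per component, and leaving out each library, where the lone library of a condition is taken to vary as the opposite condition does.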

Additional observations from a re-analysis of the deposited data

How the results depend on the processing

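The count of members called higher (3 as reported) was 0 with a pseudocount of 0.1, 0 with a pseudocount of 5, 1 with TMM scaling, 0 with TPM summed per component, and 0 to 0 with each library left out. The count of members called lower (1) was 0 with a pseudocount of 5, 2 with the filter at 5 TPM, 2 with TMM scaling, 2 without rice- and carlavirus-matched unigenes, 0 with TPM summed per component, and 0 to 0 with each library left out. Of the pathway enzymes, 4 were called higher, and this count was 1 with a pseudocount of 0.1, 0 with a pseudocount of 5, 15 with the filter, 2 with TMM scaling, 0 per component and 0 to 3 with each library left out (3 without Z1-1); 0 were called lower, and 1 with the filter. With the number in the library names as a replicate block the members' calls stayed at 3 higher and 1 lower and the pathway enzymes called higher rose to 7. The repeat differences of Z0 and Z1 had r = -0.087 across all unigenes, which are not independent replicates, and r = -0.327 across the members. With 4 libraries these values cannot show whether those of the same number shared trees or a batch. At the pseudocount of 5 limma called 0 of all unigenes, and 3 members were higher and 2 lower at an unadjusted p under 0.05.

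The fold change of DN26146_c0_g1 ran from -1.41 to 0.46 with a library left out and changed sign only without Z0-2. That of DN31902_c0_g1 ran from -0.67 to 0.56 and changed sign without Z0-2 and without Z1-2. For DN21282_c0_g1 the range was -0.96 to 0.041, and the sign changed without Z1-1 and per component (0.19). The sign also changed for DN18724_c0_g3 per component (0.39). For DN37229_c0_g1 it changed with scaling by median ratio (-0.050), with TMM scaling (-0.19) and without rice- and carlavirus-matched unigenes (-0.0051). None of these was called in any setting. The cause of these changes was not tested, except that the filter tested 31035 unigenes, 12 of them members, and the sum per component 30459 components.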

Other observations

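Outside the chosen list, 32 more unigenes not matched to rice carried the Pfam domain PF02458, and those named here were picked after their values were seen. Limma called 0 of the 32 higher and 2 lower in Z1, where it called 3.2% and 1.8% of all unigenes. At an unadjusted p under 0.05 and beyond 2-fold 2 of the 32 were higher and 7 lower, against 16.5% and 7.71% of all unigenes. Their median fold change was -0.10. Both called unigenes, DN36262_c0_g4 and DN30693_c0_g8, lie in the components of the spermidine hydroxycinnamoyl transferases above. The most abundant were matched to methanol O-anthraniloyltransferase, an enzyme of the grape-like scent ester methyl anthranilate, and the 3 highest of these had a mean TPM over the 4 libraries above that of every *HST* unigene, although in Z1-1 DN31867_c0_g1, at 64.3 TPM, was above all of them. DN34907_c0_g1 of this kind was at 75.2, 109, 46.7 and 148 TPM in Z0-1, Z0-2, Z1-1 and Z1-2, with overlapping conditions (fold change -0.12, SE 0.60, limma adjusted p = 0.897). DN34907_c0_g2 was at 43.8, 23.1, 45.6 and 62.5 TPM in the same order, with both Z1 libraries above Z0 and a fold change of 0.73 (limma adjusted p = 0.279).

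A shikimate O-hydroxycinnamoyltransferase or a protein like it was the best Nr match of 4 of these unigenes, which had no such Swiss-Prot description, and none of the 4 passed the test. DN36022_c0_g5, named acyl transferase 1 by Swiss-Prot, was at 0.05 TPM in Z0-1, listed at 0 in Z0-2, and at 8.83 and 1.51 TPM in Z1-1 and Z1-2 (fold change 2.28, SE 0.71, limma adjusted p = 0.125). DN29299_c0_g1, of 1413 nucleotides, was at 1.35, 2.66, 0.83 and 1.02 TPM in Z0-1, Z0-2, Z1-1 and Z1-2, with both Z1 libraries below Z0 (fold change -0.61, limma adjusted p = 0.321). DN29299_c0_g2, of the same component, was at 0.04, 0.46, 1.19 and 0.87 TPM in the same order, with both Z1 libraries above Z0 (fold change 0.72, limma adjusted p = 0.372). DN7776_c0_g1 was at 2.25, 0.75, 0.57 and 0.4 TPM, with both Z1 libraries below Z0 (fold change -0.69, limma adjusted p = 0.382). All 4 were below 10 TPM in every library, where DN31867_c0_g1 and DN31867_c0_g2 reached 64.3 and 39.9 TPM in Z1-1.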
